A study of Arabidopsis thaliana with 12 samples.

Results

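The genes described here are the nuclear genes for the photosynthetic apparatus of Arabidopsis thaliana: 12 genes for the antenna of photosystem II (LHCB1 to LHCB6), 4 for the antenna of photosystem I (LHCA1 to LHCA4), 12 for photosystem I subunits (PSAD to PSAO), 7 for photosystem II subunits (PSBO to PSBS), and 5 for the small subunit of Rubisco (RBCS) and Rubisco activase (RCA). They were given as a list of 40 locus identifiers. Of these, 39 had a row in the table of 25424 genes, and all 39 passed the filter on low counts and were tested among 21897 genes. LHCB1.5 (AT2G34420) was not analysed here. RNA was sequenced from dissected inflorescence meristems, the shoot tips that form flowers, in 12 libraries, 3 in each of 4 groups: pip2 plants at high and at low air humidity, and col0 plants, the wild type, at high and at low air humidity. The mutant is written pip2 in the genotype label, pip2d in the titles and pip2;5 in the design text, which names PIP2;5, an aquaporin of the plasma membrane. Neither the alleles, the number of mutant lines, the age of the plants nor the humidity values were found in the labels, and nothing says that replicates came from separate cultures or plants, so p-values measure only the spread between these samples.

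Photosynthesis in plants runs in 2 photosystems of the chloroplast's thylakoid membrane, which are fed by antenna proteins that bind chlorophyll. The core proteins of the photosystems and the large subunit of Rubisco, the enzyme that fixes CO2, are encoded in the chloroplast, while the antenna proteins, many outer subunits and the small subunit of Rubisco are encoded in the nucleus. Their nuclear genes are known to be switched on together by light and by chloroplast development, and green tissues of the flower bud express them too.

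PIP2;5 averaged 0.962 ± 0.204 CPM (counts scaled to a fixed library total) in pip2 and 50.8 ± 1.33 CPM in col0 at high humidity, and 0.785 ± 0.348 CPM in pip2 and 70.8 ± 0.876 CPM in col0 at low humidity (SD, n = 3 each), so every library went with its genotype label. Libraries held 17850187 to 28445060 counts, and the table listed only genes with a count in col0 low replicate 1. Of 8 meristem markers 7 were measured, and none was at 0 in any library, which in col0 low replicate 1 was given by the make-up of the table. The lowest, UFO, had as few as 2 counts in pip2 high and 4 in col0 low. Replicate 1 at low humidity stood apart for the photosynthesis genes in both genotypes. The genes' median log2 CPM, set against the col0 low mean, was -0.11 in pip2 low replicate 1 against 0.15 and 0.14 in replicates 2 and 3, and -0.08 in col0 low replicate 1 against 0.04 and 0.03 in replicates 2 and 3. It was 0.28, 0.35 and 0.30 in pip2 high and 0.29, 0.28 and 0.28 in col0 high, so the high-humidity libraries lay above all 6 low-humidity libraries. Counts of calls and medians are therefore also given without replicate 1 of both low groups, a choice made after the values were seen.

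These genes were among the most abundant transcripts of the samples. Levels are given as TPM (transcript abundance scaled to a fixed total, which corrects for transcript length). Of the TPM summed over the 22887 genes that have one, they took 7.81% ± 0.140 in pip2 high, 6.61% ± 0.521 in pip2 low, 7.62% ± 0.131 in col0 high and 6.34% ± 0.239 in col0 low (SD, n = 3 each). Genes not listed or without a TPM are left out of that sum. In col0 at low humidity, 18 of the 50 most abundant genes and 29 of the 100 most abundant were photosynthesis genes of the list, out of 22887 genes with a TPM. RBCS1A, the main copy of the Rubisco small subunit, was the most abundant of all 22887, at 7714 ± 386 TPM. It was followed among these genes by LHCB1.3 at 5536 ± 251 TPM, RBCS3B at 3960.5 ± 278 TPM and PSBR at 3287 ± 424 TPM. LHCB1.4 had the lowest level of the 39, at 31.8 ± 5.94 TPM in col0 low, which was rank 5996. The other 34 genes lay between 298 and 1779.6 TPM in that group.

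**Figure D1:**
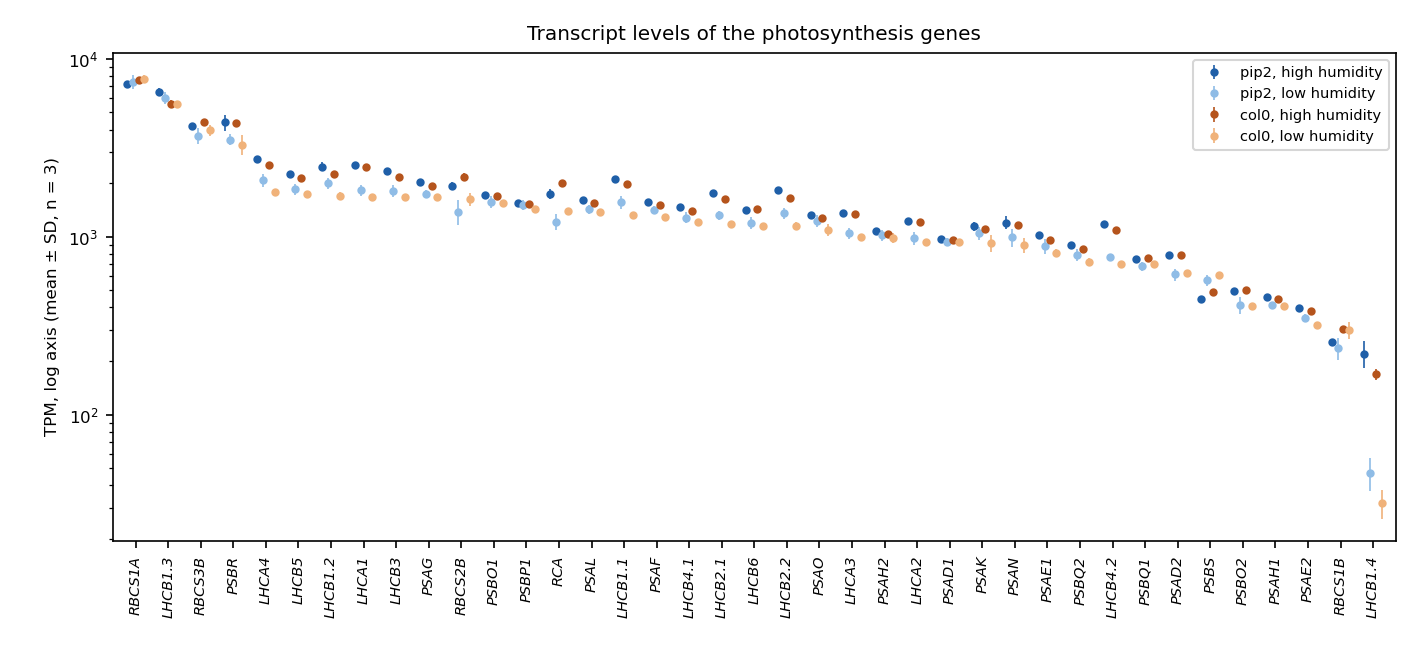
Level of each of the 39 photosynthesis genes in TPM on a log axis, as mean ± SD of 3 libraries in pip2 at high and low humidity and in col0 at high and low humidity, with genes ordered by their level in col0 at low humidity. RBCS1A stands highest at 7714 TPM and LHCB1.4 lowest at 31.8 TPM in col0 low, and LHCB1.4 is the gene whose high- and low-humidity points lie farthest apart.

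The first comparison asked how the photosynthesis genes differed between high and low air humidity, within each genotype. Most of them were higher at high humidity, in both genotypes and by small amounts. In pip2, 23 of 39 rose and 1 fell, with a median log2 fold change of 0.26 (edgeR's quasi-likelihood test, Benjamini-Hochberg adjusted p under 0.05). In col0, 25 of 39 rose and 1 fell, with a median of 0.29. Among all tested genes, 24.2% were called in pip2 (12.3% higher and 11.9% lower) and 30.2% in col0 (14.3% higher and 15.9% lower), and the median over all tested genes was 0.01 in pip2 and -9.72e-05 in col0. Fold changes of 37 of the 39 genes were above 0 in each genotype. By CPM, the high-humidity libraries lay wholly above the low-humidity libraries for 30 genes in pip2 and for 30 in col0, against 19.6% and 21.9% of all tested genes.

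The calls were largely shared: 22 genes rose in both genotypes, PSBS fell in both, and 12 were called in neither. PSAL was called in pip2 alone and PSAF, PSAN and PSBQ2 in col0 alone, but these 4 calls depended on the setting. DESeq2 called PSAL in both genotypes, DESeq2 and the fit with a replicate block called PSAF and PSAN in both, and the block called PSBQ2 in both. For these 4 the test of the difference in response between the genotypes gave no call (adjusted p of 0.953 to 0.979, edgeR's interaction term). Summed over the 39 genes, TPM came to 70522 ± 1189 in pip2 high and 60138 ± 4732 in pip2 low, and to 68748 ± 1111 in col0 high and 57772 ± 2102 in col0 low (SD, n = 3 each). In bulk samples like these, fewer cells of a type and less RNA per cell cannot be told apart. Without replicate 1 of both low groups, 19 genes were called in pip2, with a median of 0.17, and 25 in col0, with a median of 0.26. The calls lost there were those of LHCB4.1, PSAE1, PSAE2, PSAG and PSAL in pip2 and of PSAF in col0. Without pip2 low replicate 1 alone, 18 were called in pip2, with a median of 0.17.

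**Figure D2:**
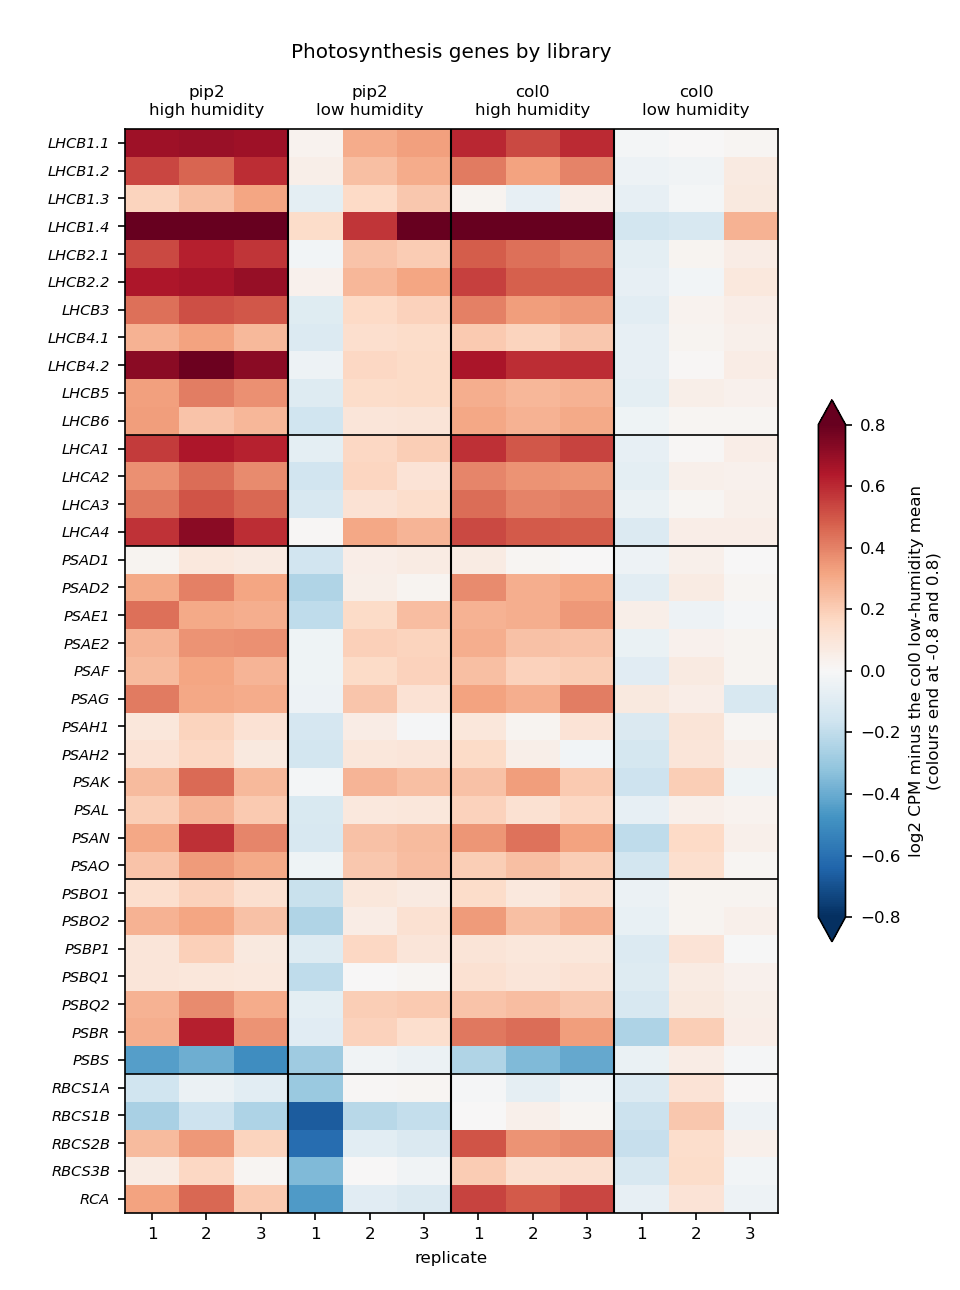
Heat map of log2 CPM of each photosynthesis gene (rows, grouped by role) in each of the 12 libraries (columns), set against the gene's mean in col0 at low humidity, with colours that end at -0.8 and 0.8 (LHCB1.4 lies beyond them in high humidity). High-humidity libraries of both genotypes are red in most rows, PSBS is blue there, and replicate 1 at low humidity is the palest or bluest low-humidity library in most rows.

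Markers of other cell types moved in part with these genes. The mesophyll markers CA1 and CA2, carbonic anhydrases of green tissue, summed to 501 to 540 TPM in pip2 high and 325 to 461 TPM in pip2 low, and to 581 to 612 TPM in col0 high and 408 to 488 TPM in col0 low. CA2 rose in both genotypes, with a log2 fold change of 0.92 ± 0.15 in pip2 (adjusted p = 0.00143) and 0.89 ± 0.15 in col0 (adjusted p = 0.00134). CA1 had a log2 fold change of 0.31 ± 0.13 in pip2 (adjusted p = 0.0898) and of 0.36 ± 0.13 in col0 (adjusted p = 0.0444). Of 4 anther markers, which summed to 2511 to 3002 TPM in pip2 high, 2021 to 2562 TPM in pip2 low, 2238 to 2716 TPM in col0 high and 1546 to 2223 TPM in col0 low, GRP17 rose in both genotypes and the other 3 were called in neither. Fold changes were above 0 for 3 of the 4 in pip2 (median log2 fold change 0.20). In col0 that of GRP17 alone was above 0 (median -0.29), although the sum was higher. Of 4 vascular markers, 0 were called in pip2 (edgeR, 0 at an unadjusted p under 0.05), while the 3 cellulose synthase genes CESA4, CESA7 and CESA8 rose in col0. The vascular sum was 134 to 154 TPM in pip2 high, 111 to 136 TPM in pip2 low, 143 to 171 TPM in col0 high and 108 to 139.8 TPM in col0 low. None of 3 guard cell markers was called (edgeR, 0 in pip2 and 2 in col0 at an unadjusted p under 0.05), with sums of 29.3 to 32.0 TPM in pip2 high, 24.8 to 31.0 TPM in pip2 low, 27.6 to 32.2 TPM in col0 high and 24.5 to 29.3 TPM in col0 low. Of 3 epidermis markers, FDH fell in col0 (-0.18 ± 0.06, adjusted p = 0.0423) and none was called in pip2 (edgeR, 0 at an unadjusted p under 0.05), with sums of 1046 to 1303 TPM in pip2 high, 1086 to 1227 TPM in pip2 low, 1220.1 to 1356 TPM in col0 high and 1262 to 1409 TPM in col0 low. The summed level of the 7 meristem markers was 182 to 190.1 TPM in pip2 high, 187 to 215 TPM in pip2 low, 183 to 205 TPM in col0 high and 176 to 180.4 TPM in col0 low. Among them CLV1, a receptor kinase of the meristem, rose by 0.48 ± 0.06 in pip2 and 0.55 ± 0.06 in col0, and the other 6 were called in neither. Each of the 4 anther markers had at least 991 counts in every library, and their sum lay above that of the meristem markers in every group. Transcripts of anther markers were thus abundant in samples labelled as meristems. Which tissue the photosynthesis transcripts came from, and the part of the cell make-up in the result, was not tested.

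Nearly all antenna genes of photosystem II rose. Of the 11 LHCB genes measured, 10 rose in each genotype, with a median log2 fold change over the 11 of 0.40 in pip2 and 0.38 in col0. LHCB1, LHCB2 and LHCB3 (AT5G54270) encode the proteins of the trimeric light-harvesting complex II. LHCB4, LHCB5 (AT4G10340) and LHCB6 (AT1G15820) encode the minor antenna proteins that sit between those trimers and the core of photosystem II.

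LHCB1.4 (AT2G34430) had by far the largest change of the 39 genes. It had 177, 237 and 247 TPM in pip2 high and 37.2, 47.0 and 57.1 TPM in pip2 low, and 167, 158 and 180.1 TPM in col0 high and 28.9, 28.0 and 38.7 TPM in col0 low. All 6 high-humidity libraries lay above all 6 low-humidity libraries, by more than the spread within any group. By counts it rose 4.77-fold in pip2 (log2 fold change 2.25 ± 0.20 SE, adjusted p = 5.00e-05) and 5.16-fold in col0 (2.37 ± 0.20, adjusted p = 3.93e-05), and the difference in response between the genotypes was within error (-0.11 ± 0.28, adjusted p = 0.963). Even so, LHCB1.4 gave little of the LHCB1 transcript, with 1.94% ± 0.301 of the TPM of the 4 measured copies in pip2 high and 0.485% ± 0.0656 in pip2 low, and 1.68% ± 0.0370 in col0 high and 0.369% ± 0.0534 in col0 low.

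The close copies of LHCB1 did not move alike. LHCB1.3 (AT1G29930), the most abundant antenna gene, had 6318, 6369.6 and 6928 TPM in pip2 high and 5522, 6095 and 6489 TPM in pip2 low, and 5569.7, 5315 and 5897 TPM in col0 high and 5432, 5354 and 5822 TPM in col0 low. The high and low libraries of LHCB1.3 overlapped in each genotype, and its log2 fold change was 0.14 ± 0.08 in pip2 (adjusted p = 0.246) and 0.00 ± 0.08 in col0 (adjusted p = 0.986). LHCB1.1 (AT1G29920) had 2130.0, 2082 and 2135 TPM in pip2 high and 1418, 1604 and 1674 TPM in pip2 low, and 1991, 1918 and 2055 TPM in col0 high and 1347, 1298 and 1327 TPM in col0 low. It rose by a log2 fold change of 0.46 ± 0.07 in pip2 (adjusted p = 0.000260) and 0.58 ± 0.07 in col0 (adjusted p = 2.70e-05), with no overlap of the groups. LHCB1.2 (AT1G29910) rose by 0.33 ± 0.07 in pip2 and 0.38 ± 0.07 in col0. The share of LHCB1.3 in the TPM of the 4 copies was 57.6% ± 0.688 in pip2 high and 62.6% ± 0.115 in pip2 low, and 56.0% ± 0.401 in col0 high and 64.4% ± 0.480 in col0 low. With the counts of the 4 copies summed before the fit, the log2 fold change was 0.26 ± 0.08 in pip2 (adjusted p = 0.0286) and 0.21 ± 0.08 in col0 (adjusted p = 0.0648).

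How far the copies can be told apart by reads shows in the last 90 coding bases before the stop codon, read from the NCBI RefSeq annotation of TAIR10.1. Capitals mark the bases that differ from LHCB1.3, the first line. LHCB1.1 to LHCB1.3 lie near each other on chromosome 1 and LHCB1.4 lies on chromosome 2.
LHCB1.3: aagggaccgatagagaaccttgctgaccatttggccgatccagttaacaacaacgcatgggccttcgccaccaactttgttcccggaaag
LHCB1.1: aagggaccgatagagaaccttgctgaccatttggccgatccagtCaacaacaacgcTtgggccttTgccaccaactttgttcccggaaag
LHCB1.2: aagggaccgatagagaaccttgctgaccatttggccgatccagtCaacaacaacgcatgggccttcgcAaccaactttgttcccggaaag
LHCB1.4: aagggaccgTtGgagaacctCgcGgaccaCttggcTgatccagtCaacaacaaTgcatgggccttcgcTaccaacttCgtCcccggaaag
In this stretch LHCB1.1 differs at 3 bases, LHCB1.2 at 2 and LHCB1.4 at 11. Over the whole coding sequence LHCB1.1, LHCB1.2 and LHCB1.3 are 95.6% to 96.4% identical and LHCB1.4 is 86.8% to 88.2% identical to them. A window of 75 bases found in another gene as well made up 10.4% of the windows of LHCB1.1, 3.66% of LHCB1.2, 7.53% of LHCB1.3 and, shared with LHCB1.5, 7.27% of LHCB1.4. A read that lies wholly in such a window cannot be assigned to 1 copy, and the labels do not say how the counting treated such reads. The window length was a choice made here, and by how much the level of each copy is uncertain was not measured.

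Of the other antenna genes of photosystem II, LHCB4.2 (AT3G08940) had the next largest change. It had 1174, 1180.4 and 1165 TPM in pip2 high and 721, 779.7 and 791 TPM in pip2 low, and 1099, 1064 and 1088 TPM in col0 high and 689, 687 and 733 TPM in col0 low, with no overlap between humidities. Its log2 fold change was 0.65 ± 0.07 in pip2 (adjusted p = 2.63e-06) and 0.61 ± 0.07 in col0 (adjusted p = 4.66e-06). Its sister copy LHCB4.1 (AT5G01530), at a higher level, rose by 0.22 ± 0.07 in pip2 (adjusted p = 0.0315) and 0.20 ± 0.07 in col0 (adjusted p = 0.0455). The call of LHCB4.1 was lost in 6 of 21 alternatives in pip2 and in 11 of 21 in col0, and its fold change in pip2 was 0.14 without pip2 low replicate 1. LHCB2.1 (AT2G05100) and LHCB2.2 (AT2G05070) both rose. Windows of 75 bases that they share made up 15.3% of LHCB2.1 and 19.1% of LHCB2.2, so the split between this pair is uncertain, by an amount that was not measured. LHCB2.1 changed by 0.43 ± 0.07 in pip2 and 0.44 ± 0.07 in col0, and LHCB2.2 by 0.46 ± 0.07 in pip2 and 0.50 ± 0.07 in col0. LHCB3 rose by 0.40 ± 0.08 in pip2 and 0.36 ± 0.08 in col0, LHCB5 by 0.30 ± 0.08 in pip2 and 0.28 ± 0.08 in col0, and LHCB6 by 0.26 ± 0.07 in pip2 and 0.30 ± 0.07 in col0. The call of LHCB6 in pip2 was lost in 2 of 21 alternatives. The summed antenna of photosystem II held 23549 ± 579 TPM in pip2 high and 19215 ± 1427 TPM in pip2 low, and 21472 ± 612 TPM in col0 high and 17402 ± 568 TPM in col0 low.

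All 4 antenna genes of photosystem I rose in both genotypes. They encode the 4 proteins that bind to one side of photosystem I in pairs, LHCA1 (AT3G54890) with LHCA4 (AT3G47470) and LHCA2 (AT3G61470) with LHCA3 (AT1G61520). LHCA1 had 2489, 2563 and 2579 TPM in pip2 high and 1668, 1852 and 1934 TPM in pip2 low, and 2481, 2383 and 2505 TPM in col0 high and 1647, 1647 and 1732 TPM in col0 low. Its log2 fold change was 0.51 ± 0.08 in pip2 (adjusted p = 0.000121) and 0.54 ± 0.08 in col0 (adjusted p = 6.16e-05). LHCA4 rose by 0.43 ± 0.08 in pip2 and 0.50 ± 0.08 in col0, LHCA3 by 0.41 ± 0.07 in pip2 and 0.42 ± 0.07 in col0, and LHCA2 by 0.35 ± 0.08 in pip2 and 0.37 ± 0.08 in col0. For each of the 4, all high-humidity libraries of a genotype lay above all of its low-humidity libraries. Their sum was 7876 ± 157 TPM in pip2 high and 5918 ± 455 TPM in pip2 low, and 7549 ± 117 TPM in col0 high and 5381 ± 155 TPM in col0 low.

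**Figure D3:**
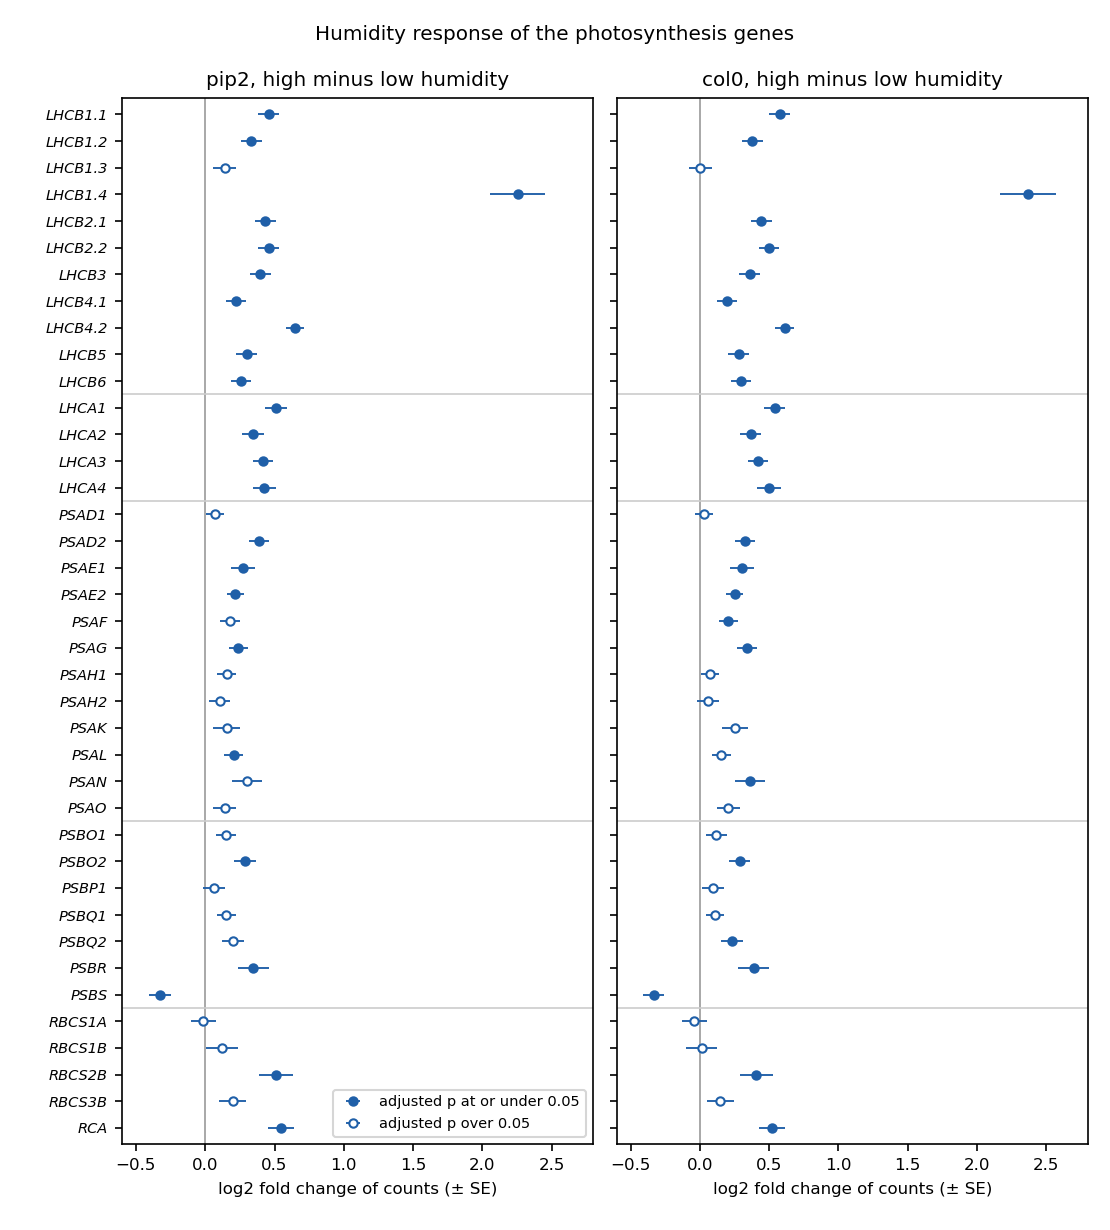
Log2 fold change of counts, high minus low humidity, with its standard error, for each photosynthesis gene in pip2 (left) and col0 (right), with filled points for an adjusted p at or under 0.05 and lines between roles. LHCB1.4 lies at 2.25 in pip2 and 2.37 in col0, PSBS at -0.33 in both, and all other genes between -0.04 and 0.65.

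Of 12 subunits of photosystem I, 5 rose in pip2 and 6 in col0. The median log2 fold change was 0.19 in pip2 and 0.23 in col0. PSAD and PSAE sit on the stromal side, where ferredoxin docks, and each has a pair of copies. PSAD2 (AT1G03130) had 776, 806 and 780.3 TPM in pip2 high and 557, 641 and 641 TPM in pip2 low, and 804, 767 and 798 TPM in col0 high and 604, 638 and 631 TPM in col0 low. It rose by 0.39 ± 0.07 in pip2 (adjusted p = 0.000926) and 0.33 ± 0.07 in col0 (adjusted p = 0.00292). Its partner PSAD1 (AT4G02770) had 953, 961 and 984 TPM in pip2 high and 879, 952 and 978 TPM in pip2 low, and 962, 945 and 956 TPM in col0 high and 922, 929.6 and 929.9 TPM in col0 low. PSAD1 had a log2 fold change of 0.07 ± 0.07 in pip2 (adjusted p = 0.490) and 0.03 ± 0.07 in col0 (adjusted p = 0.771). The share of PSAD2 in the pair's TPM was 44.9% ± 0.683 in pip2 high and 39.5% ± 0.720 in pip2 low, and 45.3% ± 0.407 in col0 high and 40.2% ± 0.582 in col0 low. With the counts of the pair summed, the log2 fold change was 0.19 ± 0.07 in pip2 (adjusted p = 0.0584) and 0.14 ± 0.07 in col0 (adjusted p = 0.134).

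PSAE1 (AT4G28750) and PSAE2 (AT2G20260) both rose, PSAE1 by 0.27 ± 0.09 in pip2 and 0.31 ± 0.09 in col0 and PSAE2 by 0.22 ± 0.06 in pip2 and 0.25 ± 0.06 in col0. Without pip2 low replicate 1 both calls in pip2 were lost, with PSAE1 at 0.15, and PSAE1 also lost its call in col0 without col0 low replicate 2 or col0 high replicate 3. PSAG (AT1G55670), which helps to hold the antenna of photosystem I, rose by 0.24 ± 0.07 in pip2 (adjusted p = 0.0211) and 0.34 ± 0.07 in col0 (adjusted p = 0.00176). PSAG and PSAE1 stand on thinner counts than their TPM would give. Relative to the median gene, their level from counts per exon length was 11.7-fold and 3.44-fold under their TPM. Genes on the opposite strand overlap 61.4% and 34.1% of their exon bases. PSAH1 had 53.3% of its exon bases in such overlap, with a log2 ratio of count level to TPM of -0.33. Why the 2 genes differ was not tested. In TPM, PSAG had 1996, 2047 and 2064 in pip2 high and 1630.2, 1767 and 1801 in pip2 low, and 1919, 1877 and 1962 in col0 high and 1607, 1723 and 1658 in col0 low, again without overlap between humidities. PSAF (AT1G31330), a docking site for plastocyanin, had a log2 fold change of 0.18 ± 0.07 in pip2 (adjusted p = 0.0798) and rose by 0.21 ± 0.07 in col0 (adjusted p = 0.0367). PSAN (AT5G64040), on the lumen side, had 0.30 ± 0.11 in pip2 (adjusted p = 0.0598) and rose by 0.36 ± 0.11 in col0 (adjusted p = 0.0220). PSAL (AT4G12800), which with PSAH and PSAO (AT1G08380) forms the docking region for light-harvesting complex II, rose by 0.21 ± 0.07 in pip2 (adjusted p = 0.0405) and had 0.16 ± 0.07 in col0 (adjusted p = 0.105). In pip2, PSAL lost its call in 10 of 21 alternatives and PSAG in 4 of 21, and in col0 PSAF lost it in 5 of 21 and PSAN in 2 of 21. On the TPM scale, by limma, PSAG rose by 0.21 in col0.

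PSAH1 (AT3G16140), PSAH2 (AT1G52230), PSAK (AT1G30380) and PSAO passed the test in neither genotype. Their log2 fold changes were 0.10 to 0.15 in pip2 and 0.06 to 0.25 in col0. In edgeR with the replicate number as a block over all 12 libraries, PSAK and PSAO passed in col0, at 0.26 (adjusted p = 0.00445) and 0.21 (adjusted p = 0.0166). PSAK had 1104, 1226 and 1101 TPM in pip2 high and 951, 1094 and 1089.7 TPM in pip2 low, and 1068, 1157 and 1083 TPM in col0 high and 839, 1027 and 891 TPM in col0 low. By TPM every high-humidity library lay above the low-humidity ones in both genotypes, narrowly in pip2, and by CPM in col0 alone.

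Photosystem II subunits split. Of 7, 2 rose and 1 fell in pip2, and 3 rose and 1 fell in col0, with a median log2 fold change of 0.15 in pip2 and 0.12 in col0. PSBO, PSBP, PSBQ and PSBR (AT1G79040) belong to the oxygen-evolving side of photosystem II. PSBR had 4025, 4908 and 4211 TPM in pip2 high and 3236, 3679 and 3627 TPM in pip2 low, and 4330.5, 4464 and 4220.3 TPM in col0 high and 2826, 3659.6 and 3376 TPM in col0 low. It rose by 0.35 ± 0.11 in pip2 (adjusted p = 0.0332) and 0.39 ± 0.11 in col0 (adjusted p = 0.0157). PSBR lost its call in 4 of 21 alternatives in pip2 and, without col0 low replicate 1, in col0. PSBO2 (AT3G50820), the minor copy of the manganese-stabilising protein, rose by 0.29 ± 0.08 in each genotype, and by 0.18 in pip2 without pip2 low replicate 1, while PSBO1 (AT5G66570), the major copy, had 0.15 ± 0.07 in pip2 (adjusted p = 0.157) and 0.12 ± 0.07 in col0 (adjusted p = 0.249). With the counts of both copies summed, the log2 fold change was 0.18 ± 0.08 in pip2 (adjusted p = 0.104) and 0.15 ± 0.08 in col0 (adjusted p = 0.148). PSBQ2 (AT4G05180) had 0.20 ± 0.08 in pip2 (adjusted p = 0.0750) and rose by 0.23 ± 0.08 in col0 (adjusted p = 0.0381), a call lost in 5 of 20 alternatives. PSBQ1 (AT4G21280) and PSBP1 (AT1G06680) were called in neither genotype, with log2 fold changes of 0.06 to 0.15.

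PSBS (AT1G44575) was the one photosynthesis gene of the list that fell. It encodes the sensor of lumen acidity that triggers the release of excess light energy as heat. PSBS had 451, 451 and 432 TPM in pip2 high and 524, 589 and 594 TPM in pip2 low, and 511, 477 and 469.6 TPM in col0 high and 600.3, 616 and 601 TPM in col0 low. Its high-humidity libraries lay below its low-humidity libraries in each genotype. The log2 fold change was -0.33 ± 0.08 in pip2 (adjusted p = 0.00474) and -0.33 ± 0.08 in col0 (adjusted p = 0.00331), a level of 0.798 and 0.794 times that at low humidity. Replicate 1 at low humidity, low for most of the list, was also the lowest low-humidity library for PSBS in both genotypes.

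Rubisco genes divided between copies. RCA (AT2G39730), the activase that frees Rubisco from bound sugar phosphates, had 1753, 1859 and 1617 TPM in pip2 high and 1066, 1289 and 1292 TPM in pip2 low, and 1997, 1963 and 2063 TPM in col0 high and 1361, 1461 and 1342 TPM in col0 low. It rose by 0.54 ± 0.09 in pip2 (adjusted p = 0.000465) and 0.52 ± 0.09 in col0 (adjusted p = 0.000563). RBCS2B (AT5G38420) had 1947, 2015 and 1842 TPM in pip2 high and 1121, 1511 and 1509.9 TPM in pip2 low, and 2282, 2089 and 2160.0 TPM in col0 high and 1467, 1749 and 1658 TPM in col0 low. It rose by 0.51 ± 0.12 in pip2 (adjusted p = 0.00722) and 0.41 ± 0.12 in col0 (adjusted p = 0.0210), where the call was lost without col0 low replicate 1 or col0 high replicate 1.

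The other 3 small-subunit genes were called in neither genotype. RBCS1A (AT1G67090) had 6985, 7301 and 7291 TPM in pip2 high and 6622, 7663 and 7879 TPM in pip2 low, and 7574, 7361 and 7783 TPM in col0 high and 7340.3, 8111 and 7692 TPM in col0 low, with the humidities overlapping in each genotype. Its log2 fold change was -0.01 ± 0.09 in pip2 (adjusted p = 0.937) and -0.04 ± 0.09 in col0 (adjusted p = 0.788). RBCS3B (AT5G38410) had 0.20 ± 0.10 in pip2 (adjusted p = 0.148) and 0.15 ± 0.10 in col0 (adjusted p = 0.265), and RBCS1B (AT5G38430) 0.12 ± 0.11 in pip2 and 0.01 ± 0.11 in col0. The share of RBCS1A in the TPM of the 4 copies was 53.1% ± 1.17 in pip2 high and 58.2% ± 0.873 in pip2 low, and 52.3% ± 0.656 in col0 high and 56.8% ± 0.628 in col0 low. That of RBCS2B was 14.3% ± 0.454 in pip2 high and 10.8% ± 0.707 in pip2 low, and 15.03% ± 0.471 in col0 high and 11.9% ± 0.425 in col0 low. In LHCB1, PSAD, PSBO and RBCS, the copy with the largest share was called in neither genotype while a smaller copy rose in both. Of the smaller RBCS copies only RBCS2B rose, and differences in response between copies were not tested. The other families with several copies did otherwise: both listed copies of LHCB2, LHCB4 and PSAE rose, neither copy of PSAH was called, and PSBQ2, the larger of its pair, rose in col0.

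The small-subunit copies are shown by the last 90 coding bases in the RefSeq annotation of TAIR10.1, aligned to RBCS1A; those of the B copies end 1 codon before the stop. Capitals mark differences from RBCS1A, and RBCS2B is identical to RBCS3B here.
RBCS1A: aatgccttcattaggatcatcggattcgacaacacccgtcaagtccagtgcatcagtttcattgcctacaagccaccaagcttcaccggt
RBCS3B: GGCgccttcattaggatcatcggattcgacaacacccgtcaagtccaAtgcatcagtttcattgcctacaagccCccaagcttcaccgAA
RBCS1B: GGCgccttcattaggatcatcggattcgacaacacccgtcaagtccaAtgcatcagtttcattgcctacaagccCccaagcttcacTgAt
The 3 B copies lie in a row on chromosome 5 and are 94.1% to 97.3% identical over the coding sequence, against 87.7% to 90.1% identity with RBCS1A on chromosome 1. Windows of 75 bases shared among the B copies made up 4.99% of RBCS2B, 9.01% of RBCS1B and 14.96% of RBCS3B, so their split is less certain than that from RBCS1A, which shared none. With the counts of the B copies summed, the log2 fold change was 0.26 ± 0.10 in pip2 (adjusted p = 0.0723) and 0.20 ± 0.10 in col0 (adjusted p = 0.156).

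**Figure D4:**
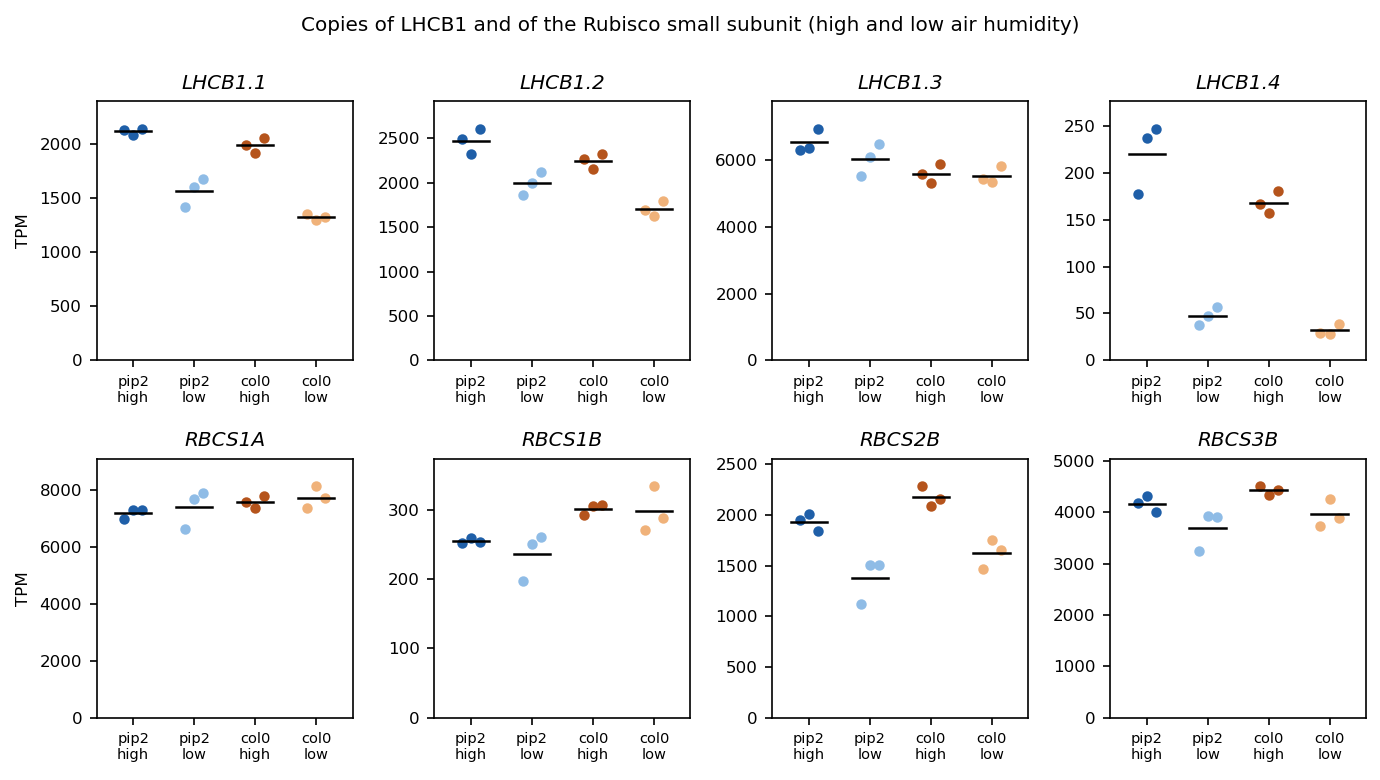
TPM of each copy of LHCB1 (top) and of the Rubisco small subunit (bottom) in every library, as points, with the mean of each group as a line, for pip2 and col0 at high and low humidity, each panel with its own axis from 0. LHCB1.1, LHCB1.2, LHCB1.4, RBCS2B and RBCS3B separate high from low humidity in both genotypes, and LHCB1.3, RBCS1A and RBCS1B overlap.

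The 250 bases before their annotated starts were searched for short motifs known from light-regulated promoters, on both strands. The G-box (CACGTG) was found in 8 of 39 promoters (20.5%), against 6.49% of 27443 protein-coding genes. The I-box (GATAAG) was found in 11 (28.2%, against 12.3%), the CCA1-binding motif (AAAATCT) in 11 (28.2%, against 16.5%), the GT1 core (GGTTAA) in 8 (20.5%, against 14.6%) and the TATA box (TATAAA) in 16 (41.0%, against 47.3%). No motif contains another, though matches to different motifs may overlap. Among the 22 genes that rose in both genotypes the G-box was in 5, the I-box in 6, the CCA1 motif in 6, the GT1 core in 3 and the TATA box in 7. Among the 12 called in neither, the G-box was in 2, the I-box, the CCA1 motif and the GT1 core in 3 each and the TATA box in 9. The CCA1 motif was in 6 of 12 promoters of photosystem I subunits and 4 of 11 of the photosystem II antenna, and in none of the 12 promoters of photosystem II subunits and Rubisco genes. A match is a description of letters and not of a bound site, and its absence says only that the letters are not in the window.

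Promoters of 4 genes show the range, each 250 bases, 5′ to 3′ on the gene's strand, ending at the base before the start annotated by RefSeq for TAIR10.1, with G-box, I-box, CCA1 and GT1 matches in capitals. LHCB1.4, with the largest rise, has a CCA1 match 17 bases before the start (chr2:14524357-14524606, plus strand). RBCS2B, the small-subunit gene that rose, has a G-box and 3 I-boxes (chr5:15382072-15382321, minus strand). RBCS1A, which was not called (chr1:25049668-25049917, minus strand), and PSBS, which fell (chr1:16869971-16870220, plus strand), have none of the 4. Each window hangs on where the annotation puts the start. Annotated exons came to 1268 bases in RBCS1A and 935 in RBCS2B, for 543 and 546 coding bases. A stretch shared by the windows of RBCS1B and RBCS2B lies farther from the annotated start in RBCS2B, so those windows are shifted against each other. Whether the windows of RBCS1A and RBCS2B lie at matching places was not tested. The matches in RBCS2B and their absence in RBCS1A therefore cannot be set against each other here.
LHCB1.4: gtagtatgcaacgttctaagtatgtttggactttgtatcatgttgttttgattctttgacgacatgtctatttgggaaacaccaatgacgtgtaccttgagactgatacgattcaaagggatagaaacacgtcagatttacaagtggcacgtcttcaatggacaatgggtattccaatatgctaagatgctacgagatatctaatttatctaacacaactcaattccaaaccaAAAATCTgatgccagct
RBCS2B: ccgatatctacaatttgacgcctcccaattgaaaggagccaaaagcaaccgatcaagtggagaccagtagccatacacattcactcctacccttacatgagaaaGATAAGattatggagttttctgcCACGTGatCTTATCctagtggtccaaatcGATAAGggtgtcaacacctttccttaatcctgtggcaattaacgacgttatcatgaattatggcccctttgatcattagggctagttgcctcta
RBCS1A: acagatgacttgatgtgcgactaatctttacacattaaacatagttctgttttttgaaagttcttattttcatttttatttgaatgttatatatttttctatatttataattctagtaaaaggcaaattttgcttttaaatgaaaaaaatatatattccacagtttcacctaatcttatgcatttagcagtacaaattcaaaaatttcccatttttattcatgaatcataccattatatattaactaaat
PSBS: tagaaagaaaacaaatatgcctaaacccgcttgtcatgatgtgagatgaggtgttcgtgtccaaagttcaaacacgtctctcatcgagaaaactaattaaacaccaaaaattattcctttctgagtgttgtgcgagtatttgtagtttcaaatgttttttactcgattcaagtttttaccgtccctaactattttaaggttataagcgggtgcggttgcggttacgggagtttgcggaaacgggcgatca

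The second comparison asked how pip2 differed from col0 at each humidity. No photosynthesis gene passed the main test, which did not pair libraries by replicate number, at either. At high humidity 0 of 39 were called by edgeR, 2 had an unadjusted p under 0.05 and DESeq2 called 0, against 0.589% of all tested genes called (0.201% higher and 0.388% lower). At low humidity 0 were called by edgeR, 7 had an unadjusted p under 0.05 and DESeq2 called 2, against 2.98% of all tested genes (0.9% higher and 2.08% lower). With the replicate block edgeR called 1 there, against 1084 of all tested genes. The median log2 fold change, pip2 minus col0, was 0.06 at high and 0.07 at low humidity, against 0.01 and -0.00 over all tested genes. These medians moved with single libraries: at high humidity the median was 0.01 without pip2 high replicate 2 and 0.04 without col0 high replicate 2, and at low humidity it was 0.15 without pip2 low replicate 1, 0.02 without pip2 low replicate 2, 0.03 without pip2 low replicate 3, 0.03 without col0 low replicate 1 and 0.11 without replicate 1 of both low groups.

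Antenna and Rubisco genes nonetheless lay on opposite sides of 0. Of the 11 LHCB genes, 10 had a fold change above 0 at high humidity and 11 at low humidity, with medians of 0.13 at high and 0.10 at low humidity. All 5 Rubisco genes were below 0 at both humidities, with medians of -0.15 at high and -0.21 at low humidity. Other groups were as one-sided. Of 12 photosystem I subunits, 11 were above 0 at high and 9 at low humidity. Only 1 of 16 Calvin cycle genes was above 0 at each humidity, and of 9 photorespiration genes 1 was at high and 0 at low humidity. At high humidity, by CPM, the 3 pip2 libraries lay wholly above the 3 col0 libraries for 14 of 39 genes, 10 of them LHCB genes, and wholly below for 3, RBCS1B, RBCS2B and RCA. The share of all tested genes was 7.29% above and 6.71% below. At low humidity 1 gene lay wholly above (LHCB1.1) and 2 wholly below (RBCS1B and RCA), against 8.47% and 11.2% of all tested genes. Genes of a library move together, as their medians above show, so these counts are not counts of independent events.

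The summed antenna of photosystem II held 23156 to 24214 TPM in pip2 and 20839 to 22060 TPM in col0 at high humidity, without overlap, and 17650.4 to 20443 TPM in pip2 and 17019 to 18054 TPM in col0 at low humidity, with overlap. LHCB1.3 had the largest positive difference at high humidity after LHCB1.4, a log2 fold change of 0.24 ± 0.08 (adjusted p = 0.349), and its 3 pip2 libraries lay above its 3 col0 libraries. RBCS1B had 253, 259.6 and 253 TPM in pip2 and 294, 305 and 308 TPM in col0 at high humidity, and 197, 251 and 261 TPM in pip2 and 271, 334 and 288 TPM in col0 at low humidity. Its log2 fold change was -0.24 ± 0.11 at high humidity (adjusted p = 0.589) and -0.35 ± 0.11 at low humidity (adjusted p = 0.152). At low humidity, the edgeR fit with the replicate block over all 12 libraries called RBCS1B lower in pip2 (-0.36, adjusted p = 0.0200). Same-numbered libraries of the genotypes deviated together there (correlations of 0.16 to 0.21), but no label says that replicate numbers pair libraries. RCA had -0.19 ± 0.09 at high humidity (adjusted p = 0.608) and -0.21 ± 0.09 at low humidity (adjusted p = 0.321). Library pip2 low replicate 1 bears on the low-humidity result: without it edgeR called 4 genes higher in pip2, LHCB1.1, LHCB1.2, LHCB2.2 and LHCA4, and without replicate 1 of both low groups it called LHCB1.1. Of the epidermis markers at low humidity, ATML1 was lower in pip2 (-0.22 ± 0.06, adjusted p = 0.0344), and PDF1 had -0.27 ± 0.10 (adjusted p = 0.235) and FDH -0.24 ± 0.06 (adjusted p = 0.0505).

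The third comparison asked whether the humidity response differed between the genotypes. By edgeR's interaction term 0 of 39 genes were called, 0 had an unadjusted p under 0.05 and DESeq2 called 0, against 0.443% of all tested genes (0.356% higher and 0.0868% lower). Differences in response, pip2 minus col0, ran from -0.12 (LHCB1.1, ± 0.11) to 0.14 (LHCB1.3, ± 0.12), with a median of -0.00. The standard errors of 0.09 to 0.28 set the size of difference that this design could show.

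Beyond the list, other genes of photosynthesis and of its control did not all move the same way. Of 7 further light-harvesting genes, 1 rose and 4 fell in each genotype. LHCB2.3, another LHCB2 copy, had 444 to 464 TPM in pip2 high and 245 to 301 TPM in pip2 low, and 397 to 432 TPM in col0 high and 219 to 239.9 TPM in col0 low. It rose by 0.77 ± 0.08 in pip2 (adjusted p = 2.07e-06) and 0.85 ± 0.08 in col0 (adjusted p = 7.86e-07). LHCB4.3, a divergent LHCB4 copy, fell, with a log2 fold change of -0.54 ± 0.07 in pip2 and -0.53 ± 0.07 in col0, and LHCA5 with one of -0.30 ± 0.06 in pip2 and -0.28 ± 0.06 in col0. ELIP2, an early light-induced protein linked to protection from excess light, had 9.69 to 14.8 TPM in pip2 high and 19.2 to 22.6 TPM in pip2 low, and 20.4 to 24.2 TPM in col0 high and 30.9 to 33.1 TPM in col0 low. ELIP2 fell at high humidity (-0.71 ± 0.15 in pip2, adjusted p = 0.00171, and -0.54 ± 0.14 in col0, adjusted p = 0.00631). It was also lower in pip2 than in col0, by -0.83 ± 0.14 at high humidity (adjusted p = 0.00742) and -0.66 ± 0.14 at low humidity (adjusted p = 0.0105). ELIP1, named after its values were seen, fell likewise at high humidity, with -1.25 ± 0.21 in pip2 and -0.88 ± 0.20 in col0.

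Of 11 further photosystem genes, 3 rose and 1 fell in each genotype. PSB28, an assembly factor of photosystem II, fell (-0.44 ± 0.09 in pip2 and -0.42 ± 0.09 in col0), and STN8, a kinase of photosystem II core proteins, rose (0.26 ± 0.07 in pip2 and 0.27 ± 0.07 in col0). Of 12 genes of electron transport and ATP synthase, 4 rose and 1 fell in each genotype. FD1, a ferredoxin, rose by 0.53 ± 0.08 in pip2 and 0.56 ± 0.08 in col0, and was lower in pip2 than in col0 at low humidity (-0.31 ± 0.08, adjusted p = 0.0405). PGRL1B and PGR5, of cyclic electron flow, rose in both genotypes. Of 16 Calvin cycle genes, 4 rose and 1 fell in pip2, and 3 rose and 1 fell in col0, with medians of -0.04 in pip2 and -0.03 in col0. FBA1, an aldolase, rose by 0.44 ± 0.08 in pip2 and 0.52 ± 0.08 in col0, PRK, the phosphoribulokinase, by 0.36 ± 0.07 in pip2 and 0.34 ± 0.07 in col0, and RPI3 fell in both. Of 9 photorespiration genes, AGT1, GLO1, GLO2 and HPR1 rose in both genotypes. AGT1, an aminotransferase that handles glyoxylate in peroxisomes, had the largest change in pip2, at 0.63 ± 0.09, against 0.51 ± 0.09 in col0.

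Chlorophyll synthesis went both ways. Of 15 tested genes, 3 rose and 7 fell in pip2, and 5 rose and 8 fell in col0, with medians of -0.20 in pip2 and -0.21 in col0. CAO, which makes the chlorophyll b that the antenna proteins bind, rose by 0.43 ± 0.06 in pip2 (adjusted p = 4.76e-05) and 0.39 ± 0.06 in col0 (adjusted p = 0.000107). HEMA1 and CHLM, at an early and a middle step, rose in both. PORB, a light-dependent reductase of protochlorophyllide, fell (-0.34 ± 0.08 in pip2 and -0.47 ± 0.08 in col0). Of 9 chloroplast-encoded genes, 1 rose in pip2 (ATPB, 0.57 ± 0.18, adjusted p = 0.0239) and 0 were called in col0 (edgeR, 1 at an unadjusted p under 0.05). These stood on few reads, with 67 to 185 counts per library for RBCL, the large subunit of Rubisco. Their fold changes had standard errors of 0.18 to 0.56, against 0.06 to 0.20 for the 39 nuclear genes.

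Among 23 regulators of these genes, 11 rose and 1 fell in pip2, and 12 rose and 2 fell in col0. LHY and CCA1, transcription factors of the morning arm of the circadian clock, had the smallest adjusted p. LHY had 27.4 to 29.9 TPM in pip2 high and 10.2 to 13.0 TPM in pip2 low, and 32.5 to 34.6 TPM in col0 high and 10.4 to 11.4 TPM in col0 low. It rose by 1.35 ± 0.07 in pip2 (adjusted p = 2.43e-09) and 1.61 ± 0.07 in col0 (adjusted p = 3.55e-10), and CCA1 by 0.86 ± 0.08 in pip2 and 1.02 ± 0.08 in col0. HYH, a light-signalling factor, rose by 0.61 ± 0.18 in pip2 and 1.22 ± 0.17 in col0, and PIF1, a factor that light breaks down, by 0.71 ± 0.09 in pip2 and 0.62 ± 0.09 in col0. The labels give no harvest times. SIG1, a sigma factor of the chloroplast RNA polymerase, was lower in pip2 at both humidities. It had 39.0 to 44.2 TPM in pip2 and 120.3 to 131 TPM in col0 at high humidity (-1.55 ± 0.08, adjusted p = 6.82e-10), and 32.1 to 38.9 TPM in pip2 and 97.1 to 101 TPM in col0 at low humidity (-1.49 ± 0.08, adjusted p = 1.28e-09). Of the other regulators, GNC, BBX22 and PHYA were lower in pip2 at low humidity, by -0.42 ± 0.10, -0.37 ± 0.08 and -0.21 ± 0.05. CAT2, the catalase of photorespiration, was lower too (-0.39 ± 0.08), and PORA, another protochlorophyllide reductase, was higher (1.41 ± 0.34). Of the chloroplast-encoded genes, RBCL, PSAA and PSAB were lower in pip2 at low humidity, with log2 fold changes of -0.95 ± 0.18, -1.37 ± 0.25 and -1.09 ± 0.27 (adjusted p of 0.00604, 0.00333 and 0.0318). At high humidity 0 of these 9 genes were called (edgeR, 3 at an unadjusted p under 0.05), and 4 had a fold change above 0.

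**Figure D5:**
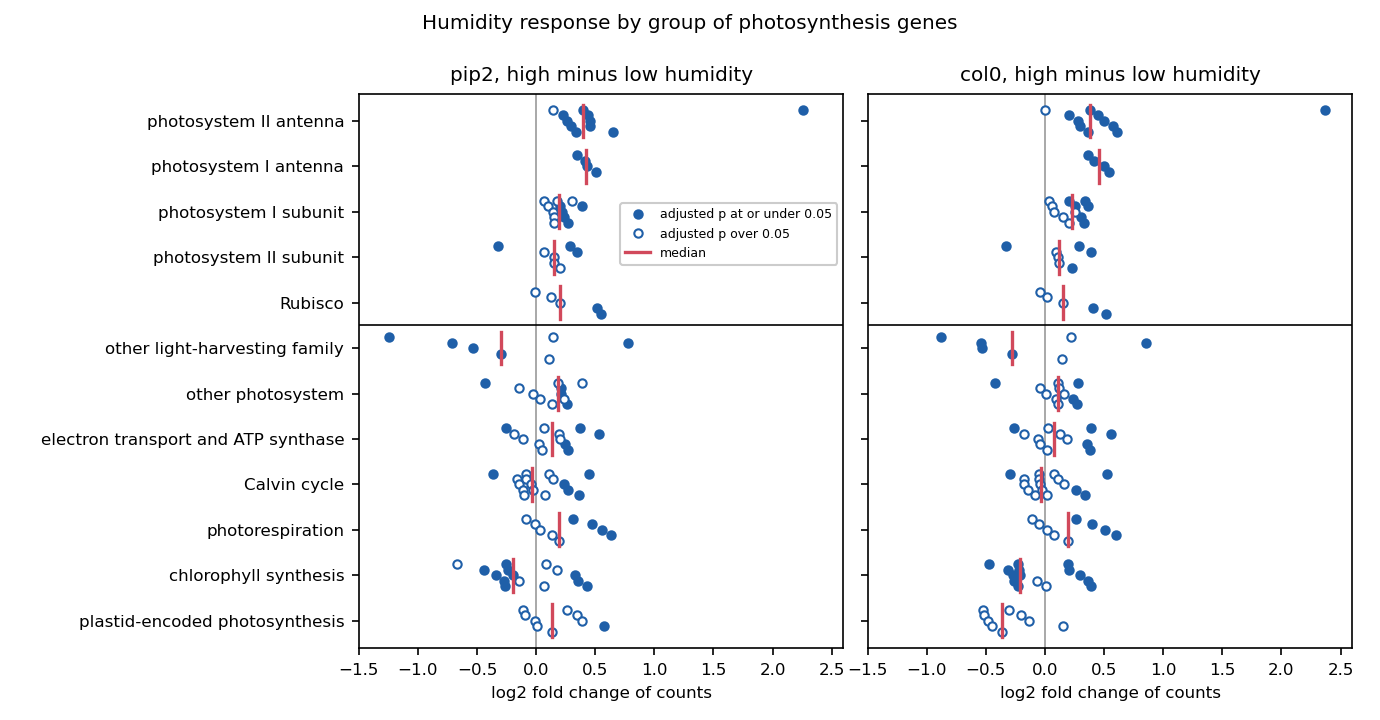
Log2 fold change of counts, high minus low humidity, of every tested gene in the 5 roles of the photosynthesis list (above the line) and in 7 further lists (below it), in pip2 (left) and col0 (right), with filled points for an adjusted p at or under 0.05 and the median of each list as a vertical bar. Medians of the antenna genes of photosystem II and I lie highest, between 0.38 and 0.46, and those of the further light-harvesting, Calvin cycle and chlorophyll synthesis genes lie below 0 in both genotypes.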

How the data were processed

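The submitters' processing notes name Trimmomatic 0.39, HISAT2 2.2.1, featureCounts 2.0.6 and the TAIR10 build. The authors deposited whole-number counts per gene and library, not normalized, and a table of TPM, per the file headers. The labels do not say whether strand was used in counting. If it was not, reads from stretches where genes overlap on opposite strands cannot be told apart. Exons of 14 of the measured photosynthesis genes have such overlap in part. Every gene in the count table has at least 1 count in col0 low replicate 1. Groups came from the sample titles. Counts were tested with edgeR 4.0.16 in R 4.3.3 (filterByExpr with a minimum count of 10 and a minimum total of 15, TMM factors of 0.972 to 1.04, robust quasi-likelihood test, all 12 libraries, 1 mean per group). P-values are two-sided, with Benjamini-Hochberg adjustment across all 21897 tested genes and a threshold of 0.05, and each SE is that of the fitted log2 fold change. Levels are given as the authors' TPM, which 2537 genes lack, and within-group correlations of log2 CPM across genes were 0.982 to 0.990. No 2 replicates agreed within sampling noise (chi-square per degree of freedom of at least 4.85).

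Alternatives were DESeq2 1.42.0, limma 3.58.1 on log2(TPM + 1), upper-quartile factors, no filter, a replicate block, close copies summed, a fit on the groups compared and each library left out. Same-numbered libraries deviated together for humidity in col0 (correlations of 0.17 to 0.37) and for genotype at low humidity (0.16 to 0.21), and not in every pair for the other comparisons. The main fit did not pair them. The replicate block paired them over all 12 libraries at once, also for humidity in pip2 (correlations of -0.03 to 0.21). The edgeR steps were tested on simulated counts. Genes outside the list were named by a rule (up to 4 per list and comparison with the smallest adjusted p). The photosynthesis genes and all lists were chosen with earlier results of these data known. Sequences and positions come from NCBI RefSeq for TAIR10.1, matched by locus, while the counts used TAIR10.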

Additional observations from a re-analysis of the deposited data

How the results depend on the processing

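For humidity in pip2 the number of photosynthesis genes called was 24, and 17 to 27 under every other setting, with 18 to 25 when 1 library was left out. For humidity in col0 it was 26, and 20 to 29 when 1 library was left out. There it was 17 with close copies summed, where 28 genes or sums were left to test, and 25 to 29 under the other settings. Of the genes called, 17 in pip2 and 19 in col0 stayed past the threshold under every alternative that tested them singly. Close copies were not tested singly when summed, and the sums of PSAD, PSBO and the RBCS B copies in both genotypes, and of LHCB1 and PSBQ in col0, were not called. The replicate block gave 27 in pip2 and 28 in col0. For genotype at low humidity, where none was called, DESeq2 called 2, the replicate block 1, leaving out replicate 1 of both low groups (added after seeing the data) 1, and leaving out 1 library 0 to 4. For genotype at high humidity and for the interaction every alternative gave 0, the block included, with 2 and 0 genes at an unadjusted p under 0.05 in edgeR. No gene's direction reversed among those called.

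Counts over all genes moved more than 1.5 times in places. For genotype at low humidity, 652 genes were called, against 1084 with the replicate block, 390 without pip2 low replicate 1, 425 without col0 low replicate 1 and 260 without both. At high humidity, 129 were called, against 239 by DESeq2, 314 with the block and 78 without pip2 high replicate 3. For the interaction, 97 were called, against 185 by DESeq2, 197 with the block, 48 by limma on TPM, 31 without replicate 1 of both low groups and 32 to 110 with 1 library left out (32 without col0 high replicate 2 and 46 without pip2 low replicate 1). With 3 libraries per group, differences near 0.2 on the log2 scale lay at the edge of what the test called.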
